A study of Homo sapiens with 6 samples.

Results

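Integrins and laminins were compared between 231-BR cells, a brain-seeking variant, and the MDA-MB-231 line they derive from, called the parental line here. MDA-MB-231 is a human triple-negative breast cancer line, and 231-BR was selected from it for its growth in the brain. The genes were taken by symbol from a list of 36 (18 integrin α chains, 8 integrin β chains and 10 laminin chains). Of these, 35 were among the 17039 genes of the expression table, and ITGAM was not analysed here. Poly(A) RNA of 3 libraries per line was sequenced, and expression was given as FPKM (fragments relative to transcript length and library size), a scale per length on which different genes can be compared. 231-BR cells were grown with G418 and parental cells without it, in otherwise the same medium. The 231-BR cells were a gift from another laboratory, and the MDA-MB-231 cells were bought from ATCC. The antibiotic, the source of the cells and the line therefore cannot be told apart. The methods call the samples parallel replicates, and whether they came from separate cultures is not given in the sources used here, so that p-values measure the spread between these libraries only.

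Integrins are the main receptors of cells for the extracellular matrix. Each receptor joins 1 α and 1 β chain, and the α chain largely sets the ligand: laminins for ITGA3, ITGA6 and ITGA7, collagens for ITGA1, ITGA2, ITGA10 and ITGA11, and proteins with the RGD motif such as fibronectin and vitronectin for ITGAV, ITGA5, ITGA8 and ITGA2B. Laminins are secreted trimers of an α, a β and a γ chain that form the sheet of basement membranes, and the basement membrane of brain vessels holds laminins with the LAMA4 and the LAMA5 chain. RNA levels, which were measured here, do not give the amount of receptor at the cell surface or of laminin secreted.

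In 231-BR cells the laminin-binding chain ITGA6 and the laminin chains LAMA4 and LAMC1 were higher. Lower were ITGB1, the β chain shared by most receptors, the RGD-binding chains ITGAV and ITGA5, the collagen-binding chain ITGA2 and the laminin chain LAMA5. Classes were not uniform: laminin-binding ITGA3 and the laminin chain LAMB3 were lower, and collagen-binding ITGA10 was higher. Of the 22 chains with a mean of at least 0.1 FPKM, which were tested, 8 were higher and 12 were lower in 231-BR cells when calls were made below an adjusted p of 0.05 (limma, Benjamini-Hochberg adjustment over all genes tested). Such a difference was common: 77.3% of all 13465 genes tested passed, 44.4% as higher and 32.9% as lower in 231-BR cells. The tested chains had a median log2 fold change of -0.17, against 0.08 over all genes tested. An absolute log2 fold change over 1 was reached as well by LAMA4 and LAMC1, which were higher, and by LAMA5 and ITGAV, which were lower, and 15.2% of all genes tested reached it (10.9% higher and 4.34% lower). ITGB8 also did so, but it met the minimum of 0.1 FPKM only through 231-BR cells, where it was high, so that no share of the chains is set against that of all genes. Libraries of 231-BR and parental cells were fully separated for 21 of the 22 chains (8 higher, 13 lower) and for 78.4% of all genes tested (44.9% higher and 33.5% lower). The 8 include ITGB8, and the 13 include LAMA2, which reached a mean of 0.1 FPKM only in parental cells. Neither these values nor the median over the 22 chains therefore counts as a difference from all genes. The study had selected ITGB1 and ITGAV as hub genes from these same data, and their direction here does not count as independent evidence.

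**Figure D1:**
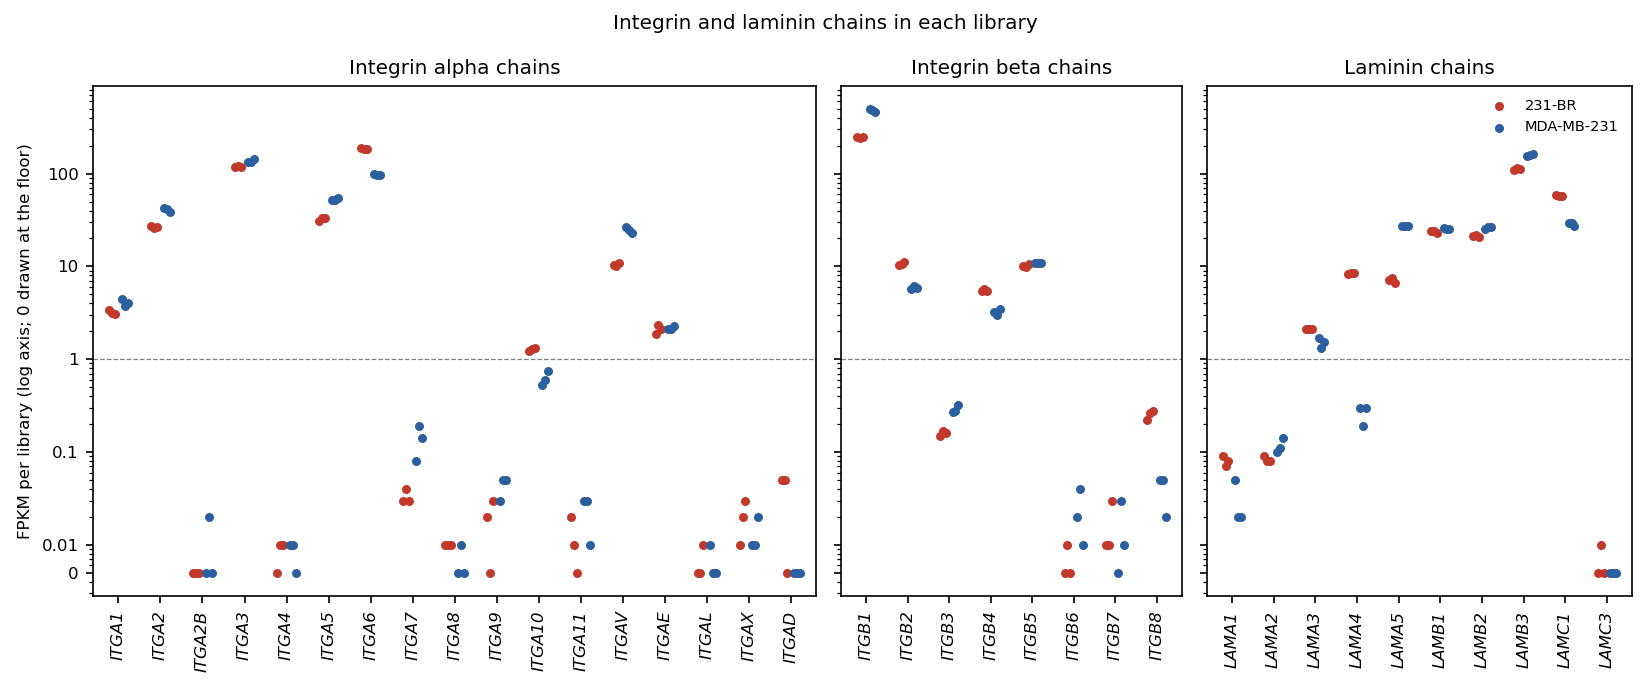
FPKM of 35 integrin and laminin chains in each library on a log axis (points, 3 libraries per line; values of 0 are drawn at the floor, and the dashed line marks 1 FPKM). 19 chains had a mean of at least 1 FPKM in either line, and LAMA4 is the chain that lay well above this level in 231-BR cells and below it in MDA-MB-231 cells.

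The lines were checked against marker genes. All 5 mesenchymal markers were expressed in both lines but differed in direction: mean levels in 231-BR against parental cells were 2550 and 2310 FPKM for VIM, 37.9 and 9.97 for SNAI2, 26.7 and 23.2 for ZEB1, 181 and 251 for CD44, and 234 and 284 for AXL. Of the 7 luminal and receptor markers, KRT18 (273 and 352 FPKM) and KRT8 (176 and 237) were lower and ERBB2 (9.88 and 4.95) and EPCAM (8.70 and 5.06) higher in 231-BR cells by their means. The hormone receptor gene ESR1 had 0.84 to 1.08 FPKM in the 231-BR libraries and 0.74 to 0.83 FPKM in the parental libraries, and PGR and CDH1 had at most 0.07 FPKM in any library. Of the leukocyte markers, PTPRC, CD3E, CD14 and SPI1 had means of at most 0.157 FPKM in either line, whereas CD68, a lysosomal protein that other cells also make, had 82.9 and 63.5 FPKM. The 4 platelet and endothelial markers in the table summed to 0.55 to 0.67 FPKM in the 231-BR libraries and 0.23 to 0.32 FPKM in the parental libraries. The FPKM of all genes summed to 465020 to 472007 in the 231-BR libraries and 486937 to 496420 in the parental libraries. Read counts were not used here, and the depth is unknown.

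The laminin α chains, which carry most of the binding sites for integrins, showed the largest differences of the list. LAMA4, a chain of vessel wall and mesenchymal basement membranes, had 8.24, 8.48 and 8.51 FPKM in the 231-BR libraries against 0.30, 0.19 and 0.30 FPKM in the parental libraries. All 231-BR libraries thus lay far above all parental libraries, and the means differed 31.9-fold. On the log2(FPKM + 0.1) scale used for the test, which draws genes of low FPKM toward 0, the log2 fold change was 4.57 (standard error, SE, 0.13, adjusted p = 6.1e-10 from limma). LAMA5, the α chain of many epithelial and vascular laminins, went the other way, with 7.08, 7.41 and 6.65 FPKM in the 231-BR libraries against 27.4, 27.2 and 27.4 FPKM in the parental libraries. Its mean was 3.88-fold higher in parental cells, a log2 fold change of -1.94 (SE 0.044, adjusted p = 1.5e-10). LAMA3, whose laminin anchors epithelium through hemidesmosomes, had 2.10, 2.11 and 2.13 FPKM against 1.70, 1.33 and 1.53 FPKM, a log2 fold change of 0.46 (SE 0.097, adjusted p = 0.0015). The libraries did not overlap for LAMA3, but after quantile normalization its log2 fold change was 0.08 (adjusted p = 0.44).

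As a share of the summed FPKM of the laminin α chains, LAMA5 made up 93.4% ± 0.797 in parental cells and 39.7% ± 1.43 in 231-BR cells (SD, n = 3 each). LAMA4 made up 0.899% ± 0.207 and 47.4% ± 1.15, and LAMA3 5.19% ± 0.575 and 11.9% ± 0.291. The ratio of LAMA5 to LAMA4 was 91.2, 143 and 91.4 in the parental libraries, whereas in the 231-BR libraries it was 0.859, 0.874 and 0.781, so that the order of these chains was inverted in every 231-BR library. The summed laminin α chains were 17.7 ± 0.369 FPKM in 231-BR cells and 29.2 ± 0.366 FPKM in parental cells. LAMA1 and LAMA2 added little in either line. LAMA1 had 0.07 to 0.09 FPKM in the 231-BR libraries and 0.02 to 0.05 FPKM in the parental libraries, and LAMA2 had 0.08 to 0.09 against 0.10 to 0.14 FPKM (log2 fold change -0.24, adjusted p = 0.28; 0.028 without the mean-variance trend and 0.018 after quantile normalization).

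LAMA5 and LAMA4 had the largest decrease and the largest increase among the chains with a mean of at least 1 FPKM in either line. The sequences before their start sites are shown because these genes moved in opposite directions and because the stretches differ in base composition. They are RefSeq promoters of GRCh38.p14 on the minus strand, at chr20:62367313-62367562 for LAMA5 and chr6:112254716-112254817 for LAMA4, written 5′ to 3′. Capitals mark the GC box, GGGCGG on either strand. For LAMA4 the 148 bases nearest to the start are left out because GENCODE release 29 has transcripts that begin before them.
LAMA5: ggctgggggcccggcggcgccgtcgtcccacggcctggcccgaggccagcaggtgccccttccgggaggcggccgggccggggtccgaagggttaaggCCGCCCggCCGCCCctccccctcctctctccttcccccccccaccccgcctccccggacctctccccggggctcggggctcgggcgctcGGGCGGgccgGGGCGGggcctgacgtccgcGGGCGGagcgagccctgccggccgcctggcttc
LAMA4: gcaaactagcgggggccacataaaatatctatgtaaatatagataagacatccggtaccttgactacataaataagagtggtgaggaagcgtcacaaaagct

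In the 250 bases before the start, G and C made up 82.8% for LAMA5 and 48.4% for LAMA4, where the median of 35116 promoters was 58.0%, and 98.7% and 28.7% of the promoters had a lower content. LAMA5 held 5 GC boxes and LAMA4 none. A GC box occurred in 42.6% of all promoters and in 16 of the 31 promoters listed for 24 of the chains. Neither gene held the AP-1 site TGANTCA or the TATA box TATAAA on either strand in these bases, motifs found in 6.57% and 10.7% of all promoters. These are matches of letters in this window, and binding was not measured. The pair was picked for its opposite changes and its differing composition, and whether these are related was not tested.

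LAMC1, the γ chain of most laminins, had 58.2, 56.9 and 57.5 FPKM in the 231-BR libraries against 29.13, 29.04 and 27.32 FPKM in the parental libraries. It was 2.02-fold higher in 231-BR cells, with no overlap of the libraries and a log2 fold change of 1.01 (SE 0.031, adjusted p = 1.4e-09). This lay close to the fold criterion of 1 and became 0.99 with a pseudocount of 1 or after quantile normalization, 0.93 after median-of-ratios scaling and 0.98 without parental replicate 3. The 40 genes around LAMC1 on chromosome 1 had a median log2 fold change of 0.60, and the part of this in the result was not tested. LAMC3, another γ chain, is listed at 0 in 5 of the 6 libraries and at 0.01 FPKM in the other.

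The laminin β chains moved less. LAMB3, which joins LAMA3 in the laminin of epithelial anchorage, was the most expressed of the listed laminin chains, with 110.5, 114.5 and 111.3 FPKM in the 231-BR libraries against 154.1, 157.1 and 163.4 FPKM in the parental libraries. All 231-BR libraries were lower, with a log2 fold change of -0.50 (SE 0.027, adjusted p = 7.8e-08), while the 40 genes around LAMB3 had a median of 0.40. LAMB2 had 21.3 ± 0.524 against 26.1 ± 0.732 FPKM and a log2 fold change of -0.29 (adjusted p = 2.0e-05), with values of 21.2, 21.9 and 20.8 in the 231-BR libraries against 25.3, 26.3 and 26.8 in the parental libraries. LAMB1, the common partner of LAMC1, had 23.8, 23.9 and 22.7 FPKM against 25.7, 25.2 and 25.5 FPKM, a log2 fold change of -0.12 (adjusted p = 0.0064). The ratio of LAMB1 to LAMC1 was 0.895 ± 0.034 in parental cells and 0.408 ± 0.0123 in 231-BR cells, and that of LAMB3 to LAMA3 was 105 ± 13.8 and 53.0 ± 1.06 (SD, n = 3 each).

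**Figure D2:**
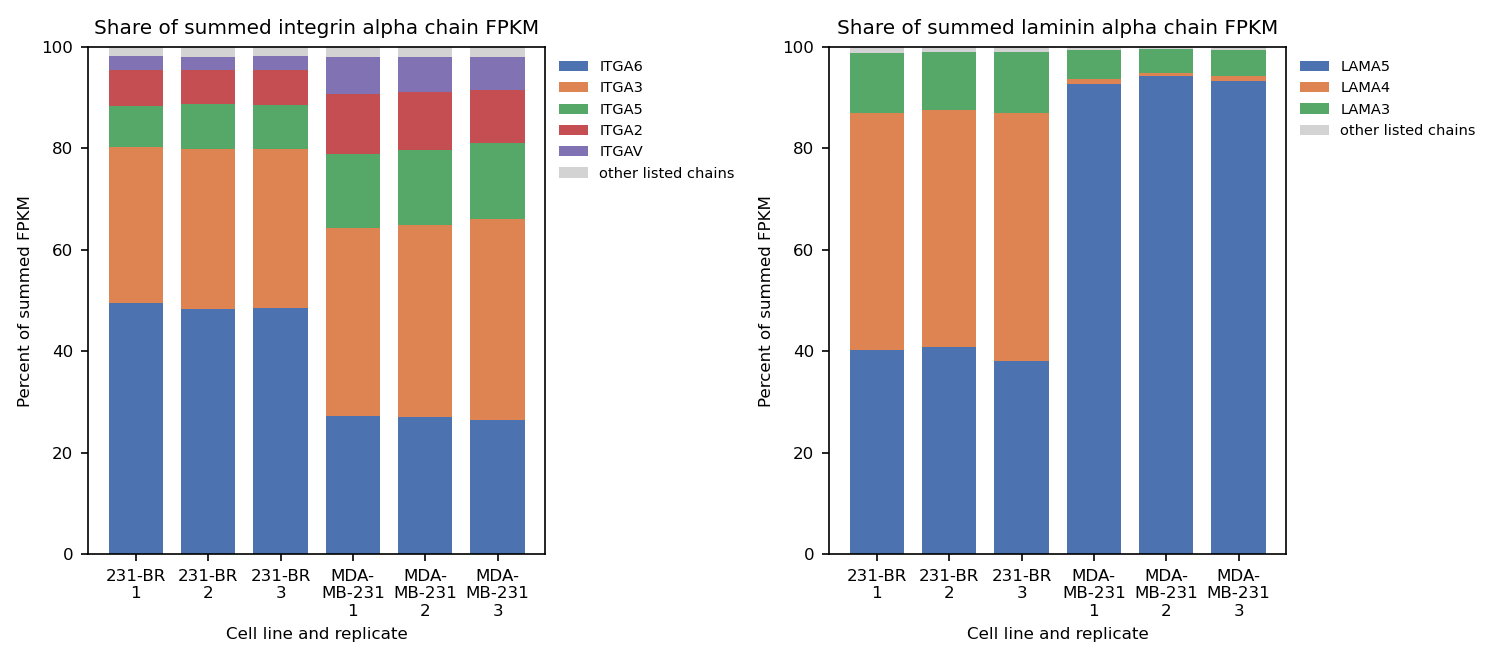
Share of each chain in the summed FPKM of the integrin α chains (left) and the laminin α chains (right), as stacked bars in percent, 1 bar per library. ITGA6 made up 48.8% of the integrin α chains in 231-BR and 26.9% in MDA-MB-231 cells, and LAMA4 47.4% and 0.899% of the laminin α chains.

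Among the integrin α chains, those that bind laminin were the most expressed. ITGA6, which forms laminin receptors with ITGB1 or ITGB4, had 189.5, 183.2 and 184.0 FPKM in the 231-BR libraries against 98.6, 96.6 and 95.7 FPKM in the parental libraries. Every 231-BR library was higher and the means differed 1.91-fold, with a log2 fold change of 0.94 (SE 0.024, adjusted p = 3.2e-10) that was 1.01 after quantile normalization. By mean FPKM, ITGA6 stood at rank 344 of all genes in 231-BR cells and at rank 804 in parental cells. The 40 genes around ITGA6 on chromosome 2 had a median of -0.30. ITGA3, the other laminin-binding chain that was well expressed, had 117.2, 119.5 and 118.3 FPKM against 133.9, 134.8 and 143.3 FPKM. It was lower in all 231-BR libraries, by less, with a log2 fold change of -0.21 (SE 0.029, adjusted p = 6.5e-05), and its 40 neighbours on chromosome 17 had a median of 0.44. ITGA7, the laminin receptor chain of muscle, had 0.03 to 0.04 FPKM in the 231-BR libraries and 0.08 to 0.19 FPKM in the parental libraries and was too low to be tested. ITGA3 was above ITGA6 in every parental library and below it in every 231-BR library, the ratio of ITGA6 to ITGA3 being 0.707 ± 0.0355 and 1.57 ± 0.0434 (SD, n = 3 each).

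Both RGD-binding chains that were tested, ITGAV and ITGA5, were lower in 231-BR cells. ITGAV, the chain of the vitronectin receptors, had 10.3, 10.0 and 10.8 FPKM in the 231-BR libraries against 26.3, 24.8 and 23.2 FPKM in the parental libraries. No library of one line came near those of the other, and the mean was 2.39-fold higher in parental cells (log2 fold change -1.25, SE 0.050, adjusted p = 8.5e-09). ITGAV lies on chromosome 2 like ITGA6, and its 40 neighbours had a median of -0.33. The part of this in the result was not tested. ITGA5, the chain of the classical fibronectin receptor, had 31.0, 33.6 and 32.9 FPKM against 52.1, 52.5 and 54.5 FPKM, a log2 fold change of -0.70 (SE 0.035, adjusted p = 3.6e-08). FN1, which encodes fibronectin and which the study selected from these libraries, was higher in 231-BR cells, with means of 20.3 against 7.84 FPKM (log2 fold change 1.36, adjusted p = 7.7e-10). ITGA8 and ITGA2B, the chains of nephronectin and platelet fibrinogen receptors, had at most 0.02 FPKM in any library.

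The collagen-binding chains were led by ITGA2, which had 27.1, 25.7 and 26.4 FPKM in the 231-BR libraries against 42.6, 41.1 and 38.4 FPKM in the parental libraries (log2 fold change -0.62, SE 0.040, adjusted p = 2.6e-07). ITGA1, which lies on chromosome 5 like ITGA2, had 3.38, 3.18 and 3.06 FPKM against 4.42, 3.71 and 4.07 FPKM, a log2 fold change of -0.33 (adjusted p = 0.0027). Both were lower in all 231-BR libraries, and their neighbours had medians of 0.13 and 0.15. ITGA10, a collagen receptor chain of cartilage, went the other way, with 1.23, 1.29 and 1.32 FPKM in the 231-BR libraries against 0.53, 0.60 and 0.75 FPKM in the parental libraries. Its log2 fold change of 0.94 (SE 0.13, adjusted p = 7.1e-05) was 0.49 with a pseudocount of 1, 0.50 after quantile normalization and 1.05 without parental replicate 3. ITGA11 had at most 0.03 FPKM in any library.

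By ligand, the laminin-binding α chains summed to 304 ± 2.49 FPKM in 231-BR cells against 234 ± 4.11 FPKM in parental cells (SD, n = 3 each). Within this class only ITGA6 had a higher mean in 231-BR cells, and the means of ITGA3 and ITGA7 were lower. The RGD-binding chains had 42.9 ± 1.34 against 77.8 ± 0.572 FPKM, and the collagen-binding chains 30.9 ± 0.757 against 45.4 ± 2.2 FPKM. Laminin-binding chains therefore made up 80.0% ± 0.309 of the α chain FPKM in 231-BR cells and 65.1% ± 0.790 in parental cells, RGD-binding chains 11.3% ± 0.400 and 21.6% ± 0.170, and collagen-binding chains 8.13% ± 0.167 and 12.6% ± 0.644. For each of these classes all 231-BR libraries lay on 1 side of all parental libraries. The sum over all 17 α chains changed little, from 360 ± 2.97 FPKM in parental to 380 ± 1.65 FPKM in 231-BR cells, a log2 ratio of 0.078 that became -0.004 after median-of-ratios scaling. These sums are descriptions and were not tested.

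**Figure D3:**
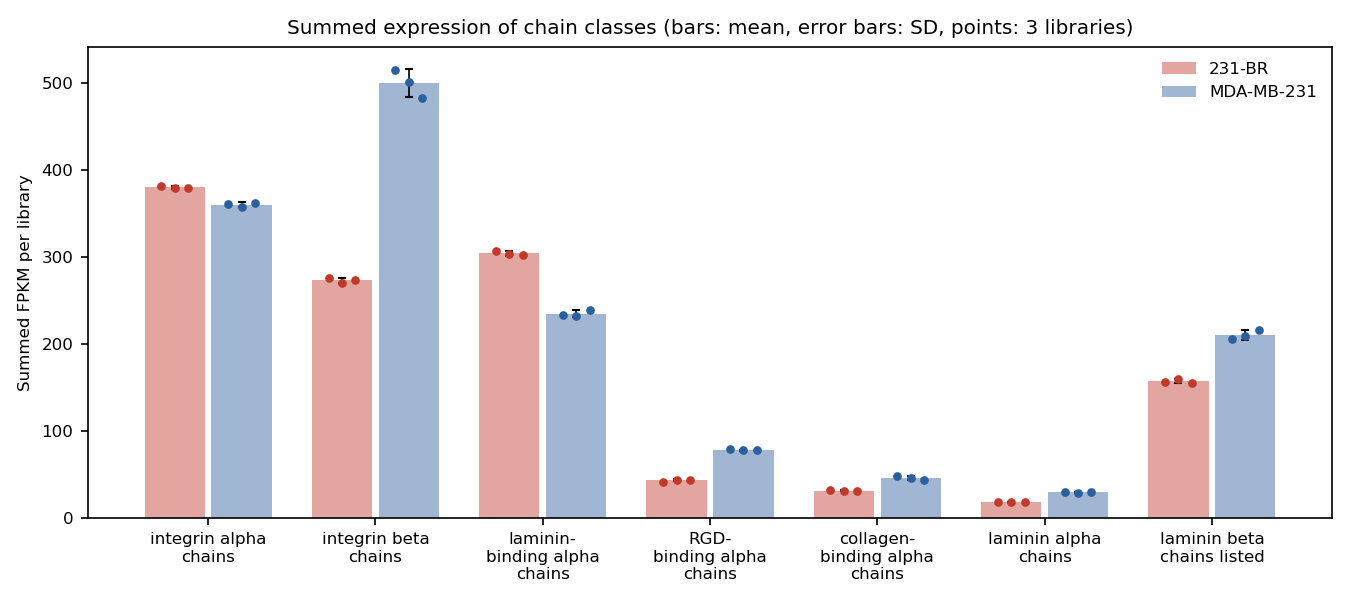
Summed FPKM of chain classes in 231-BR and MDA-MB-231 cells (bars, mean; error bars, SD; points, 3 libraries). The integrin β chains summed to 273 FPKM in 231-BR and 500 FPKM in MDA-MB-231 cells, while the integrin α chains summed to 380 and 360 FPKM.

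The β chains were dominated by ITGB1, the partner of 12 of the listed α chains. ITGB1 had 249.3, 243.4 and 245.3 FPKM in the 231-BR libraries against 494.4, 480.9 and 462.1 FPKM in the parental libraries. It was the most expressed chain of the list in both lines, at rank 245 and rank 142 among all genes, and 1.95-fold higher in parental cells (log2 fold change -0.96, SE 0.027, adjusted p = 6.8e-10). The log2 fold change was -1.04 after median-of-ratios scaling and -0.86 after quantile normalization, and the 40 genes around ITGB1 on chromosome 10 had a median of -0.30. The ratio of ITGB1 to the summed FPKM of the α chains that pair with it was 1.38, 1.36 and 1.28 in the parental libraries and 0.656, 0.646 and 0.651 in the 231-BR libraries. RNA of ITGB1 thus exceeded that of its partners together in every parental library and fell short of it in every 231-BR library. The ratio of ITGA6 to ITGB1 was 0.754 ± 0.00542 in 231-BR cells and 0.202 ± 0.00402 in parental cells (SD, n = 3 each).

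ITGB4, which pairs only with ITGA6 and links it to keratin filaments in hemidesmosomes, was higher in 231-BR cells together with its partner. It had 5.45, 5.73 and 5.44 FPKM in the 231-BR libraries against 3.21, 3.03 and 3.47 FPKM in the parental libraries, with no overlap and a log2 fold change of 0.76 (SE 0.065, adjusted p = 2.1e-06). In both lines ITGB4 was far below ITGA6, with a ratio of ITGA6 to ITGB4 of 33.5 ± 1.43 in 231-BR cells and 30.0 ± 2.23 in parental cells (SD, n = 3 each). Each 231-BR library lay above the parental libraries for this ratio, of which the highest reached 31.9, but the nearest values were almost equal.

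The β chains that pair with ITGAV differed in direction. ITGB5, a vitronectin receptor chain, had 10.2, 9.77 and 10.5 FPKM in the 231-BR libraries against 10.98, 10.94 and 10.93 FPKM in the parental libraries. Its log2 fold change was -0.11 (SE 0.041, adjusted p = 0.033), and the adjusted p was 0.068 without 231-BR replicate 1, 0.12 without 231-BR replicate 2 and 0.062, 0.071 and 0.054 without parental replicates 1, 2 and 3, whereas it was 0.023 without 231-BR replicate 3. The ratio of ITGB5 to ITGAV was 0.979 ± 0.00576 in 231-BR cells and 0.443 ± 0.0272 in parental cells. ITGB3, which pairs with ITGAV or the platelet chain ITGA2B, had 0.15, 0.17 and 0.16 FPKM against 0.27, 0.28 and 0.32 FPKM (log2 fold change -0.58, SE 0.16, adjusted p = 0.0066). ITGB8, whose receptor with ITGAV activates latent TGF-β, had 0.22, 0.26 and 0.28 FPKM in the 231-BR libraries against 0.05, 0.05 and 0.02 FPKM in the parental libraries. The log2 fold change of ITGB8 was 1.34 (SE 0.19, adjusted p = 0.00011), but it depended on the pseudocount, with 0.27 for a pseudocount of 1 and 2.46 for 0.01, and ITGB8 entered the test only through its level in 231-BR cells. ITGB6, another chain of receptors that activate TGF-β, had at most 0.04 FPKM in any library.

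ITGB2, the β chain of leukocyte integrins, was present in both lines, whereas 3 of its α chains were at or near 0 and ITGAM was not analysed. It had 10.37, 10.55 and 11.03 FPKM in the 231-BR libraries against 5.76, 6.19 and 5.91 FPKM in the parental libraries, a log2 fold change of 0.83 (SE 0.048, adjusted p = 1.1e-07), and every 231-BR library was higher. Its partners ITGAL, ITGAX and ITGAD had at most 0.05 FPKM in any library, and the leukocyte marker PTPRC had means of 0.0233 and 0 FPKM. In bulk RNA, fewer cells that express a gene and less RNA per cell cannot be told apart. ITGAE, which binds E-cadherin together with ITGB7, had 1.87, 2.35 and 2.12 FPKM against 2.11, 2.14 and 2.26 FPKM. The libraries overlapped for ITGAE (log2 fold change -0.04, 95% interval -0.25 to 0.17, adjusted p = 0.70), although after quantile normalization the log2 fold change was -0.39 (adjusted p = 0.0033). ITGB7 and the chains ITGA4 and ITGA9, which serve leukocyte homing and binding of tenascin, had at most 0.05 FPKM in any library.

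**Figure D4:**
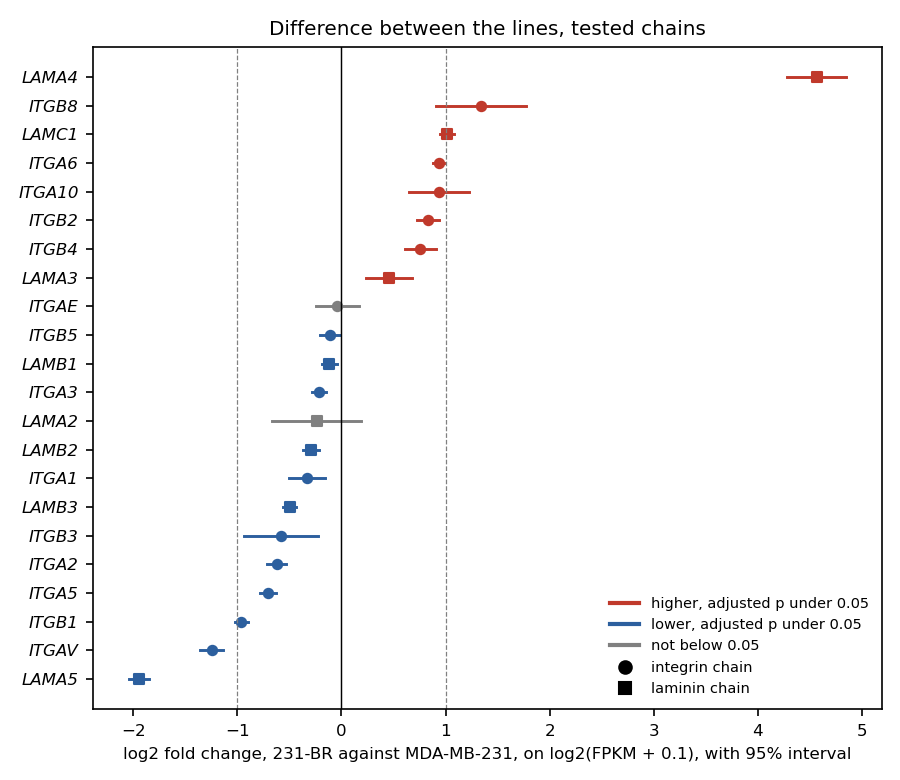
Log2 fold change (231-BR against MDA-MB-231) on the log2(FPKM + 0.1) scale with its 95% interval (lines) for the 22 tested chains; circles are integrin and squares laminin chains, red (higher in 231-BR) and blue (lower) had an adjusted p under 0.05, grey did not, and dashed lines mark -1 and 1. LAMA4 stands at 4.57 and LAMA5 at -1.94, and ITGA6, ITGB1 and LAMC1 lie close to the dashed lines.

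The other genes of integrin adhesion were taken from 4 lists, with the 2 largest increases and decreases of each named among genes with a mean of at least 1 FPKM in either line. Of the 27 tested genes for adaptors that join integrins to actin and signaling, 10 were higher and 14 were lower in 231-BR cells (88.9%, median log2 fold change -0.09), where 77.3% of all genes tested passed. An absolute log2 fold change over 1 was reached by 2 (7.41%), both lower, where 15.2% of all genes tested reached it. PTK2B is among them and met the minimum of 0.1 FPKM only through parental cells, where it was high. The shares of this list therefore do not count as a difference from all genes. FERMT3, the kindlin of blood cells and an activator of integrins, fell from 11.2, 10.0 and 10.5 FPKM in the parental libraries to 0.55, 0.51 and 0.49 FPKM in the 231-BR libraries (log2 fold change -4.11, SE 0.076, adjusted p = 4.7e-11). FERMT1, the epithelial kindlin, rose from 8.52 ± 0.315 to 15.5 ± 0.152 FPKM (log2 fold change 0.86, adjusted p = 2.6e-08). The focal adhesion gene TNS3 rose from 8.22 ± 0.146 to 15.6 ± 0.505 FPKM, and the kinase gene PTK2B fell from 1.00 ± 0.111 to 0.0933 ± 0.0115 FPKM (SD, n = 3 each).

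Of the 11 tested partners of laminin in the basement membrane and its non-integrin receptors, 4 were higher and 6 lower in 231-BR cells (90.9%, where 77.3% of all genes tested passed; median log2 fold change -0.38). The 4 include COL4A6 (0.213 FPKM in 231-BR and 0.0833 in parental cells), which met the minimum of 0.1 FPKM only through 231-BR cells. The 90.9% therefore does not count as a difference from all genes. After quantile normalization 1 was higher and 6 were lower. An absolute log2 fold change over 1 was reached by 6 (54.5%, 1 higher and 5 lower), where 15.2% of all genes tested reached it. COL4A6 is among the 11 here too, and the list was chosen with earlier results known. The 54.5% therefore does not count as a difference from all genes either. COL4A2, a main chain of basement membrane collagen, had 9.48, 9.69 and 9.57 FPKM in the 231-BR libraries against 47.4, 48.9 and 47.7 FPKM in the parental libraries (log2 fold change -2.31, SE 0.030, adjusted p = 7.5e-12). COL18A1, another collagen of this layer, fell from 17.1 ± 1.33 to 1.94 ± 0.0643 FPKM. The increases were smaller: COL4A5 rose from 0.783 ± 0.0643 to 1.77 ± 0.231 FPKM, and BCAM, a receptor for laminins with LAMA5, from 3.23 ± 0.208 to 4.10 ± 0.176 FPKM (SD, n = 3 each).

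Of the 15 tested genes for other integrin ligands, 9 were higher and 5 lower (93.3%, against 77.3% of all genes tested; median log2 fold change 0.51), and with a filter at a mean of 1 FPKM 8 were higher and 3 lower. An absolute log2 fold change over 1 was reached by 9 (60.0%, 6 higher and 3 lower), where 15.2% of all genes tested reached it. Among these, SPP1 (0.187 FPKM in 231-BR and 0.0333 in parental cells) met the minimum of 0.1 FPKM only through 231-BR cells. COL6A3 (0.0967 and 1.38 FPKM) met it only through parental cells, so that the shares of this list do not count as a difference from all genes. TGFBI, a matrix protein that binds integrins, had 0.89, 0.93 and 1.14 FPKM in the 231-BR libraries against 93.34, 95.44 and 95.01 FPKM in the parental libraries (log2 fold change -6.45, SE 0.075, adjusted p = 4.1e-12). ICAM1, the ligand of leukocyte integrins, which the study had also selected from these data, fell from 26.5 ± 0.698 to 2.80 ± 0.105 FPKM. The largest increases were those of the collagen chain COL6A2, from 4.67 ± 0.232 to 21.8 ± 0.324 FPKM, and of EDIL3, an RGD protein bound by receptors with ITGAV, from 9.38 ± 0.473 to 29.2 ± 0.635 FPKM (SD, n = 3 each).

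All 12 genes for hemidesmosome and tetraspanin partners of integrins were tested, and 231-BR cells had higher levels of 2 and lower levels of 9 (91.7%, against 77.3% of all genes tested; median log2 fold change -0.45). An absolute log2 fold change over 1 was reached by 1 gene in each direction (16.7%), close to the 15.2% of all genes tested. CD82, a tetraspanin known as a metastasis suppressor, had 3.41, 2.99 and 3.44 FPKM in the 231-BR libraries against 33.1, 32.7 and 33.3 FPKM in the parental libraries (log2 fold change -3.30, SE 0.055, adjusted p = 2.6e-11). The tetraspanin TSPAN4 fell from 33.8 ± 0.465 to 17.7 ± 1.14 FPKM. CD47, a partner of integrins with ITGAV, rose from 12.9 ± 0.429 to 26.2 ± 0.106 FPKM, and PLEC, which ties ITGB4 to keratin, from 146 ± 0.770 to 175 ± 3.8 FPKM (SD, n = 3 each).

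**Figure D5:**
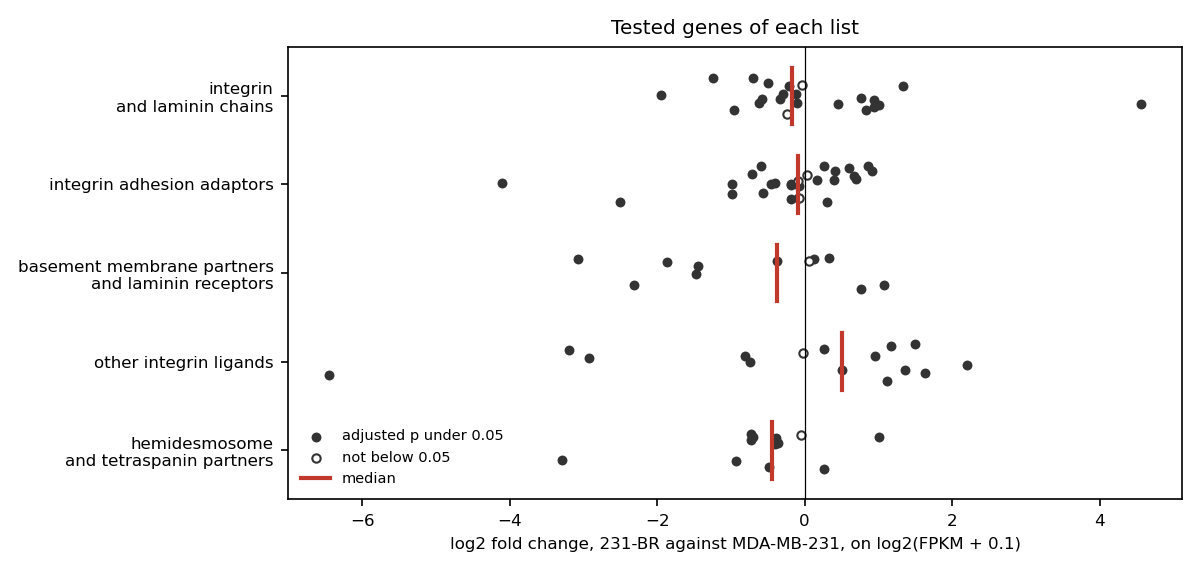
Log2 fold change (231-BR against MDA-MB-231) on the log2(FPKM + 0.1) scale for each tested gene (points; filled, adjusted p under 0.05; open, not below it) of the integrin and laminin chains and of 4 lists of related genes, with the median as a red bar. The medians were -0.17 for the chains, -0.09, -0.38 and 0.51 for adaptors, basement membrane partners and other ligands, and -0.45 for hemidesmosome and tetraspanin partners.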

How the data were processed

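Poly(A) RNA of 6 libraries (3 of 231-BR and 3 of MDA-MB-231 cells) was sequenced on a BGISEQ-500 instrument. The authors cleaned the reads with SOAPnuke, and the submitters' processing notes name HISAT2 2.0.4, Bowtie2 2.2.5 and the build GRCh38.p12. The deposited values are FPKM with 2 decimals, and the program that computed the FPKM is not given in the sources used here. Samples were grouped by their titles, since another label field counts the name of the line upward with the replicate. The files of single samples hold the same values as the table of all samples. Gene symbols that had been turned into dates, 25 in all, were restored by gene ID.

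The line was the only term of a limma 3.58.1 model (R 4.3.3, lmFit and eBayes, trend on) of log2(FPKM + 0.1). It covered 13465 genes averaging at least 0.1 FPKM, over which p-values were adjusted by Benjamini-Hochberg, and was tested on simulated data. An exact permutation test of a single gene (2-sided, 3 against 3 libraries) cannot go below 0.1. Python 3.11.15 with pandas 2.3.3 and matplotlib 3.10.9 served for summaries and plots. Neighbours of a gene were the 20 nearest on each side with a mean of at least 1 FPKM, ordered by RefSeq.

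The chains and lists were chosen with earlier results of these data known. Chains with a mean of at least 1 FPKM in either line were described with every library's value, and lower chains by range, or singly where the adjusted p was under 0.05 with a log2 fold change over 1. ITGB3 was also given singly, outside this rule. From each other list the 2 largest increases and decreases with an adjusted p under 0.05 were named. FN1 was named after its values were seen. Alternatives were pseudocounts of 1 and 0.01, no filter or a filter at 1 FPKM, median-of-ratios or quantile scaling, no trend, the replicate number as a block, leaving out libraries in turn, and other fold and level criteria.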

Additional observations from a re-analysis of the deposited data

How the results depend on the processing

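The counts of chains passing an adjusted p under 0.05 (8 higher, 12 lower in 231-BR cells) stayed within 1.5 times of these values in all alternatives that were fitted, with 8 higher and 11 to 12 lower when each library was left out. The counts with a log2 fold change over 1 (3 higher, 2 lower) moved more: 1 was higher with a pseudocount of 1 or with a mean of at least 1 FPKM in both lines, and 1 was higher and 1 lower with a log2 fold change over 1.5. After quantile normalization 1 basement membrane gene was higher in place of 4, and with a filter at a mean of 1 FPKM 3 other ligands were lower in place of 5, as fewer genes were tested. Over all genes tested the median was 0.08 on the log2 scale, against 0.06 with a pseudocount of 1 and -0.06 after quantile normalization, the latter a shift over 0.1. The median of the tested chains was -0.17, and ran from -0.29 after quantile normalization to -0.11 with a pseudocount of 1 and -0.09 with no filter. Median-of-ratios scaling turned the log2 ratio of the summed integrin α chains from 0.078 to -0.004, and moved that of the β chains from -0.873 to -0.956 and that of the laminin chains from -0.205 to -0.287. The log2 fold change of ITGAE ran from -0.12 to 0.04 with each library left out, changing sign without 231-BR replicate 1. Same-numbered libraries of the lines did not deviate together (correlations of 0.0873, -0.0396 and -0.106 over 11124 genes), and not every library correlated best with its own number, so that the numbers were not used for pairing. A replicate block left 8 chains higher and 12 lower, and 3 and 2 with the fold criterion. Without counts, the error at low FPKM rests on 3 libraries per line alone.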
